A study of Anser cygnoides with 6 samples.

Results

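Intronic single-exon lncRNAs are unspliced noncoding transcripts that lie inside an intron of a known gene, called here the host. The lncRNA table of the Shitou goose myoblast transcriptome marks such transcripts with the class code i and an exon number of 1, and it names the host of each. This rule uses no expression values, though the class was chosen with earlier results of these data known. By it 4527 of the 14993 lncRNA transcripts (30.2%) were taken. They lay in 1945 hosts on 362 scaffolds of the goose assembly GooseV1.0.

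A long noncoding RNA is an RNA of more than 200 bases that has no evident protein-coding frame. Intronic lncRNAs can be made from promoters of their own, on either strand, or can be stable pieces of the host's precursor RNA, and a few are known to act on the gene that holds them. In skeletal muscle, lncRNAs of several classes are known to take part in the change of myoblasts, the precursor cells, into myotubes, the fused fibers.

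Primary myoblasts of wild-type genotype were obtained from leg muscle of Shitou goose embryos, pooled over embryos and divided into cultures. The 3 DM libraries came from cultures induced to differentiate in medium with 2% horse serum, for which the labels give 2 to 4 days. The 3 GM libraries came from cultures proliferating in medium with 15% fetal bovine serum, and 1 library was made per culture from total RNA depleted of ribosomal RNA. The methods of the study describe cultures divided from mixed cells, while its data statement speaks of separate geese, so p-values are taken here to measure the spread between these libraries, which may be technical.

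Levels are given in FPKM, fragments scaled by the length of the transcript and by the total of mapped fragments, as deposited, with 0.0001 in place of 0. The files carry no counts, but products of FPKM and length below 6 fell, for 66.7% to 87.1% of them, within 0.05 of a whole multiple of 1 step per library, and the steps put the 6 libraries within 1.26-fold of each other in depth. Of the marker genes, PAX7, MYF5 and MYOD1, regulators of myoblasts, were called lower in DM by the test given below, whereas MEF2C, a transcription factor gene of muscle differentiation, was higher, at 23.0 to 24.0 FPKM in DM and 15.5 to 16.2 FPKM in GM (log2 fold change 0.54, adjusted p = 0.0014, inside the fold limit). MYOG, a regulator of differentiation, was at 15.4 to 21.3 FPKM in DM and 24.4 to 29.0 FPKM in GM, with an adjusted p-value of 0.053. The 5 myoblast and myotube markers in the gene table, all regulators, summed to 69.9 to 76.2 FPKM in DM and to 120 to 133 FPKM in GM. DES, CDH15 and MYMK were not matched there. In the gene lists used below, 8 of 42 tested sarcomere genes were called higher and 1 lower, against 2.18% and 1.84% of all genes. Of 30 calcium handling genes 3 were called higher and 0 lower, and of 35 myogenic regulators 2 higher and 5 lower. The 5 fibroblast markers summed to 3416 to 3684 FPKM in DM and to 1526 to 1555 FPKM in GM, with 4 of them called higher. The summed markers of other cells were lower in DM without overlap. Adipocyte markers summed to 1.37 to 3.63 FPKM in DM and 5.94 to 8.45 FPKM in GM (PPARG called lower). Cartilage markers summed to 1.44 to 2.07 FPKM in DM and 3.65 to 4.24 FPKM in GM. Endothelial markers summed to 1.21 to 1.28 FPKM in DM and 2.15 to 2.37 FPKM in GM. Schwann and neural markers summed to 0.578 to 0.80 FPKM in DM and 1.78 to 1.92 FPKM in GM. Blood and immune markers summed to 10.8 to 12.6 FPKM in DM and 14.7 to 15.3 FPKM in GM. Not every single marker was apart. The blood and immune marker CSF1R was at 7.11 to 8.48 FPKM in DM and 7.05 to 8.21 FPKM in GM (limma adjusted p = 0.838). The stages overlapped in ADIPOQ, TEK and CD3E as well. The part of these markers in the falls given below was not tested. In bulk RNA, fewer cells of a type and less RNA per cell cannot be told apart.

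The intronic lncRNAs were short and mostly without a known strand. Their median length was 394 bases, with quartiles of 265 and 855 bases and a range of 201 to 31983 bases. A strand was listed for 658 of them, 331 on the plus and 327 on the minus strand, and for the other 3869 none was listed. For these 3869, a separate lncRNA and a fragment of the host's unspliced precursor cannot be told apart. The orientation relative to the host could be read for 68, through spliced transcripts of the same host in the same table, and 45 of these were sense and 23 antisense. The same limit holds for the 45 sense transcripts and for those with a strand but no known orientation to the host. Only 74 of the 4527 were assembled into the same locus as their host.

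The hosts held unequal numbers of these transcripts. A single one was found in 1191 hosts, while 62 hosts held at least 10 each and 1000 together. Neighbours within a host lay a median of 3754 bases apart, and 505 of the 2582 neighbouring pairs (19.6%) lay within 1000 bases of each other. The hosts with the most tested transcripts were MACROD2, a hydrolase that removes ADP-ribose, with 45, CAMTA1, a calmodulin-binding transcription activator, with 36, NPAS3, a transcription factor, with 32, PDE10A, a phosphodiesterase of cyclic nucleotides, with 30, and IL1RAPL2, a member of the interleukin-1 receptor family, with 27.

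Most intronic lncRNAs were expressed at a low level in every library. They were above 0.0001 FPKM in all 6 libraries for 3516 transcripts (77.7%), and 18 were at or below that value in all 6. A mean of at least 5 FPKM was reached by 73 and of at least 10 FPKM by 25. Their median level was 1.01, 0.618 and 0.593 FPKM in DM_1, DM_2 and DM_3, and 1.30, 0.830 and 0.979 FPKM in GM_1, GM_2 and GM_3. The sum of FPKM times length in kilobases, which follows the share of mapped fragments they took, was 6757, 5008 and 5010 in DM_1, DM_2 and DM_3, against 8662, 6363 and 6648 in GM_1, GM_2 and GM_3. The stages overlapped in both measures, since DM_1 exceeded GM_2 and GM_3, and replicate 1 was the highest library within each stage.

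**Figure D1:**
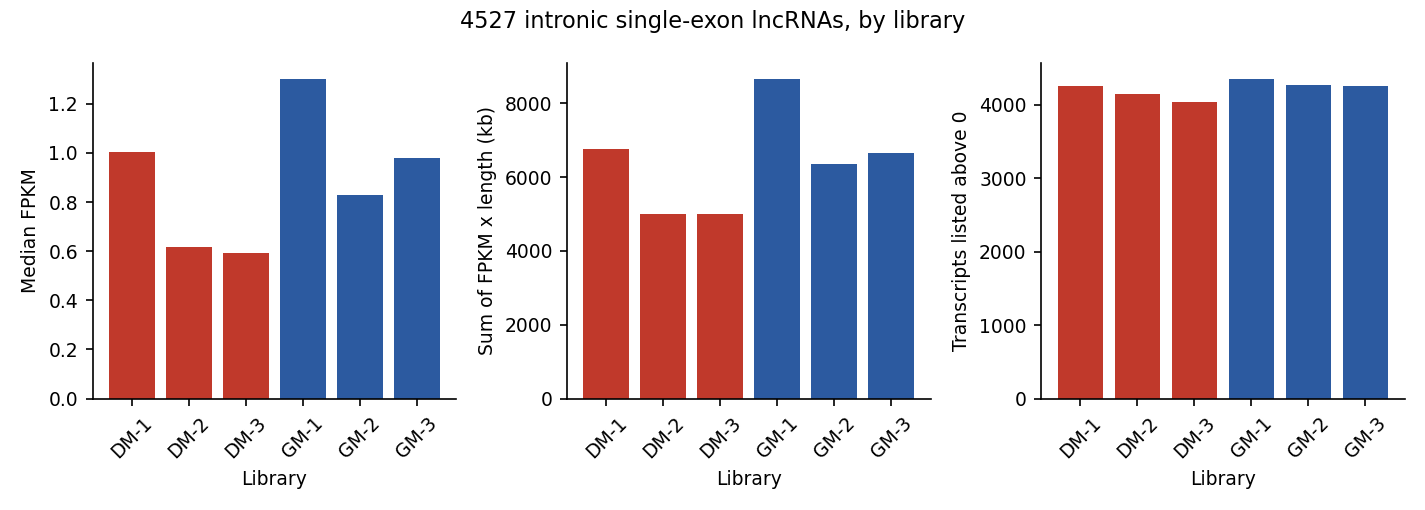
Levels of the 4527 intronic single-exon lncRNAs in each library, DM in red and GM in blue. The bars give the median FPKM (left), the sum of FPKM times length in kilobases (middle) and the number of transcripts listed above 0.0001 FPKM (right, 4035 to 4258 in DM and 4254 to 4351 in GM), and DM_1 stands above the other DM libraries in all 3 measures.

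None of the 5 most abundant intronic lncRNAs passed the test between the stages that is given below. The highest was MSTRG.29370.1 in LOC106049880, at 42.7, 57.9 and 57.6 FPKM in DM and 53.9, 50.4 and 51.3 FPKM in GM, in a host of uncharacterized function that was itself at 0.409 to 0.735 FPKM. The stages overlapped, and the log2 fold change was 0.01 (SE 0.18, limma adjusted p = 0.976). MSTRG.23857.1 in NFIC, a transcription factor gene, was at 34.1, 32.7 and 29.4 FPKM in DM and 34.3, 32.0 and 35.7 FPKM in GM (adjusted p = 0.743), beside 20.4 to 24.8 FPKM for its host. MSTRG.27306.1 in GADD45B, a stress-responsive gene, was at 27.4, 30.4 and 30.2 FPKM in DM and 22.5, 29.4 and 22.8 FPKM in GM (adjusted p = 0.386). The host GADD45B itself changed with a log2 fold change of -0.64 and an adjusted p-value of 0.0032, inside the fold limit. Transcripts in LOC106041994 and FASTKD1, a mitochondrial RNA-processing gene, completed the 5 most abundant, with adjusted p-values of 0.469 and 0.754.

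The stages were compared with limma on log2(FPKM + 1), for lncRNAs averaging at least 0.5 FPKM, and p-values were adjusted over all 12988 such lncRNAs by the Benjamini-Hochberg method. Called transcripts had an adjusted p-value below 0.05 together with a log2 change, DM over GM, past 1 or -1. Since 1 is added to each value, fold changes of low transcripts are understated. Of the 4527 intronic lncRNAs 3816 passed the minimum and 711 did not. The minimum is a mean over both stages, so that transcripts below it in 1 stage passed only through the other. For such transcripts a call is no support beyond the values themselves.

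Few of the 3816 tested transcripts were called, and most of those called were lower in DM. Called were 45 (1.18%), against 2.01% of all lncRNAs. Higher in DM were 13 (0.341%, against 0.562% of all lncRNAs), and lower in DM were 32 (0.839%, against 1.45%). In all 45 the DM and GM libraries did not overlap. Among the 3816, 1071 (28.1%) had stages that did not overlap, against 32.3% of all lncRNAs. Of these, 218 had DM above GM (5.71%, against 7.3%) and 853 had DM below GM (22.4%, against 25%).

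The split between higher and lower calls moved with the scaling of the libraries. The median log2 fold change was -0.22 for intronic lncRNAs and -0.22 for all lncRNAs, but -0.03 for all genes. Below 0 were 68.6% of the 3816 tested intronic lncRNAs, against 68.4% of all lncRNAs. When each library was divided by its own median over the lncRNAs, 35 intronic lncRNAs were called higher (0.917%, against 1.37% among all lncRNAs) and 10 lower (0.262%, against 0.554%). All 45 transcripts first called kept their sign after this scaling and after quantile normalization, and 23 of them were called under both, 13 higher and 10 lower. Quantile normalization called 27 higher (0.708%, against 1.19% among all lncRNAs) and 11 lower (0.288%, against 0.693%). The calls also rested on all 6 libraries. Without DM_1, DM_2 and DM_3 in turn, 23, 4 and 9 transcripts were called, against 134, 56 and 75 of all 12988 lncRNAs. Without GM_1, GM_2 and GM_3, 10, 6 and 5 were called, against 66, 50 and 51 of all lncRNAs. Since the stages of all 45 did not overlap, leaving out 1 library could not change their sign. Their log2 changes stayed at least 0.857 in size, with limma adjusted p-values up to 0.163. Those in PDGFA, GRIP2 and TRAPPC3L were among the 4 called in all 6 fits. With DM_1 and GM_1 both left out, limma called 0 transcripts, while 843 had an unadjusted p-value under 0.05.

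The largest fall among called transcripts on the log2(FPKM + 1) scale was in PDGFA, a growth factor gene whose protein drives the division of mesenchymal cells. MSTRG.7873.1, of 2889 bases on the minus strand (scaffold NW_013185677.1, 6798454 to 6801342), was at 3.96, 4.24 and 3.26 FPKM in DM and 16.4, 15.3 and 14.7 FPKM in GM. Every DM library was far below every GM library, and the log2 fold change was -1.78 (SE 0.15, limma adjusted p = 0.0023). With a pseudocount of 0.1 the change was -2.0, smaller than the -4.47 in GRIP2 and -3.93 in RIMS1, which are given below. The adjusted p-value stayed at or below 0.0248 with any 1 library left out. The host PDGFA fell too, to 2.27, 1.30 and 0.922 FPKM in DM against 5.19, 3.37 and 4.68 FPKM in GM (log2 fold change -1.14, adjusted p = 0.014). The intronic transcript stood above the level of its host in all 6 libraries.

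In GRIP2, which encodes a scaffold protein of glutamate receptors, MSTRG.23052.1 (202 bases, scaffold NW_013185839.1, 368710 to 368911) was listed at 0 in all 3 DM libraries and at 2.49, 1.83 and 2.09 FPKM in GM (adjusted p = 0.0058). The transcript passed the minimum of 0.5 FPKM only through its GM libraries, so that its call is no support beyond these values. The host GRIP2 was at 0.498, 0.380 and 0.321 FPKM in DM and 1.26, 1.02 and 1.49 FPKM in GM.

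Other large falls lay in SEMA6A, STARD13, RIMS1 and the loci LOC106032924 and LOC106048154. In SEMA6A, a membrane-bound semaphorin, MSTRG.26870.1 (2426 bases, minus strand, scaffold NW_013185932.1, 380906 to 383331) was at 2.71, 1.91 and 2.00 FPKM in DM and 8.13, 8.02 and 6.38 FPKM in GM, with a log2 fold change of -1.41 (SE 0.17, adjusted p = 0.0091). In STARD13, a GTPase-activating protein gene, MSTRG.17612.1 was at 0.162 FPKM in DM_1, listed at 0 in DM_2 and DM_3, and at 2.80, 1.09 and 1.19 FPKM in GM (adjusted p = 0.047). In RIMS1, a gene of vesicle release, MSTRG.3620.1 was listed at 0 in all DM libraries and at 1.56, 1.49 and 1.26 FPKM in GM (adjusted p = 0.027), and a second RIMS1 transcript, MSTRG.3616.1, was called lower as well. The transcripts in STARD13 and RIMS1 were below the minimum of 0.5 FPKM in every DM library and passed it only through GM. Their calls are therefore no support beyond these values. Transcripts in LOC106032924 and LOC106048154 fell by 1.44 and 1.34 on the log2 scale. With 1 library left out, the adjusted p-values of these 6 transcripts rose to between 0.0588 and 0.155 at the highest, so that each lost its call in at least 1 of the 6 fits.

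The largest rise was in TRAPPC3L, a paralog of a subunit of the vesicle-tethering TRAPP complex. MSTRG.6568.1 (563 bases, minus strand, scaffold NW_013185673.1, 31621 to 32183) was at 3.84, 4.49 and 3.11 FPKM in DM and 0.197, 0.476 and 0.233 FPKM in GM. The stages were far apart, and the log2 fold change was 1.88 (SE 0.18, adjusted p = 0.0034), with adjusted p-values up to 0.0363 when 1 library was left out. The host TRAPPC3L was listed at 0 in all 6 libraries, so that no change of the host could be given.

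A pair of transcripts rose in DHRS3, which encodes an enzyme that turns retinaldehyde into retinol. MSTRG.16437.1 (332 bases, sense to the host, scaffold NW_013185741.1, 2031982 to 2032313) was at 3.85, 4.23 and 2.69 FPKM in DM and 0.807, 0.119 and 0.478 FPKM in GM (log2 fold change 1.66, SE 0.23, adjusted p = 0.014). MSTRG.16438.1 (2508 bases, 2037490 to 2039997 on that scaffold) was at 2.82, 2.84 and 2.33 FPKM in DM and 0.277, 0.390 and 0.377 FPKM in GM (log2 fold change 1.44, SE 0.16, adjusted p = 0.0058). The host rose with them, at 2.3, 2.34 and 2.39 FPKM in DM and 0.828, 0.742 and 0.760 FPKM in GM, a change of 0.91 (adjusted p = 0.00045). When 1 library was left out, the adjusted p-values reached 0.0905 for MSTRG.16437.1 and 0.0643 for MSTRG.16438.1.

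Other rises lay in ADAMTS10, DCN, FBN3 and DPT. In ADAMTS10, a secreted protease gene linked to fibrillin microfibrils, MSTRG.27511.1 was at 2.60, 2.55 and 2.96 FPKM in DM and 0.725, 0.492 and 0.605 FPKM in GM (log2 fold change 1.21, adjusted p = 0.011). In DCN, which encodes the collagen-binding proteoglycan decorin, MSTRG.12137.1 was at 8.04, 9.60 and 8.61 FPKM in DM and 4.47, 2.74 and 3.55 FPKM in GM (1.10, adjusted p = 0.022). In FBN3, a fibrillin gene, MSTRG.22978.1 was at 3.99, 2.73 and 2.34 FPKM in DM and 0.980, 0.844 and 0.777 FPKM in GM (1.09, adjusted p = 0.028). These 3 hosts, and DPT, the host of a further called transcript and the gene of the matrix protein dermatopontin, were all called higher themselves, with log2 fold changes of 1.64, 1.18, 1.32 and 2.22. Of the 5 fibroblast markers, DCN among them, 4 were called higher, none was at 0, and their sum was 3416 to 3684 FPKM in DM and 1526 to 1555 FPKM in GM; their part in these results was not tested. With 1 library left out, the adjusted p-values of these 4 transcripts reached 0.0779 to 0.123.

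Called higher as well were transcripts in SESN3, a stress-inducible sestrin gene, BRINP3, ADARB2, LOC106043354, LOC106031505 and LOC106038829. MSTRG.8687.1 in SESN3 was at 4.38, 2.59 and 2.76 FPKM in DM and 0.944, 0.944 and 0.909 FPKM in GM (log2 fold change 1.11, adjusted p = 0.028), and its host was called higher by 1.32. MSTRG.19475.1 in BRINP3 was at 3.63, 3.22 and 2.06 FPKM in DM and 0.658, 0.605 and 0.873 FPKM in GM (1.2, adjusted p = 0.023). The host BRINP3 was at 0.204 to 0.261 FPKM in DM and 0.161 to 0.366 FPKM in GM, below the minimum, so that only the intronic transcript could be tested. Each of these 6 transcripts lost its call when some 1 library was left out.

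A further 16 of the 32 transcripts called lower lay in 15 hosts, with changes from -1.2 in LASP1 to -1.002 in COL15A1 on the log2 scale. In LASP1, which encodes an actin-binding scaffold protein, MSTRG.27551.1 was at 2.65, 2.27 and 2.57 FPKM in DM and 8.07, 6.09 and 7.05 FPKM in GM (adjusted p = 0.011), in a host at 50.7 to 51.6 FPKM in DM and 57.5 to 67.6 FPKM in GM. In DUSP8, a phosphatase gene that acts on MAP kinases, MSTRG.19703.1 was at 4.69, 4.32 and 3.82 FPKM in DM and 10.2, 9.21 and 9.58 FPKM in GM (adjusted p = 0.015), and its host changed by -0.97. STK32B, a kinase gene at 0.310, 0.409 and 0.346 FPKM in DM and 1.67, 1.6 and 1.82 FPKM in GM, held a pair of them, MSTRG.852.1 and MSTRG.855.1. In SPEG, a kinase gene of striated muscle, MSTRG.2904.1 was at 0.231, 0.255 and 0.0643 FPKM in DM and 1.03, 1.31 and 1.85 FPKM in GM (adjusted p = 0.048). The others lay in ADAMTS2 and COL15A1, genes of collagen processing and of a basement membrane collagen, in CREB5 and DACH2, genes of transcriptional regulators, in GABBR2, a receptor subunit of GABA, in TNS4, a tensin gene that was itself called lower by 1.39, and in LRRC32, PRMT3, MPPED1, TPD52 and LOC106044793. Each of these 16 lost its call when some 1 library was left out.

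**Figure D2:**
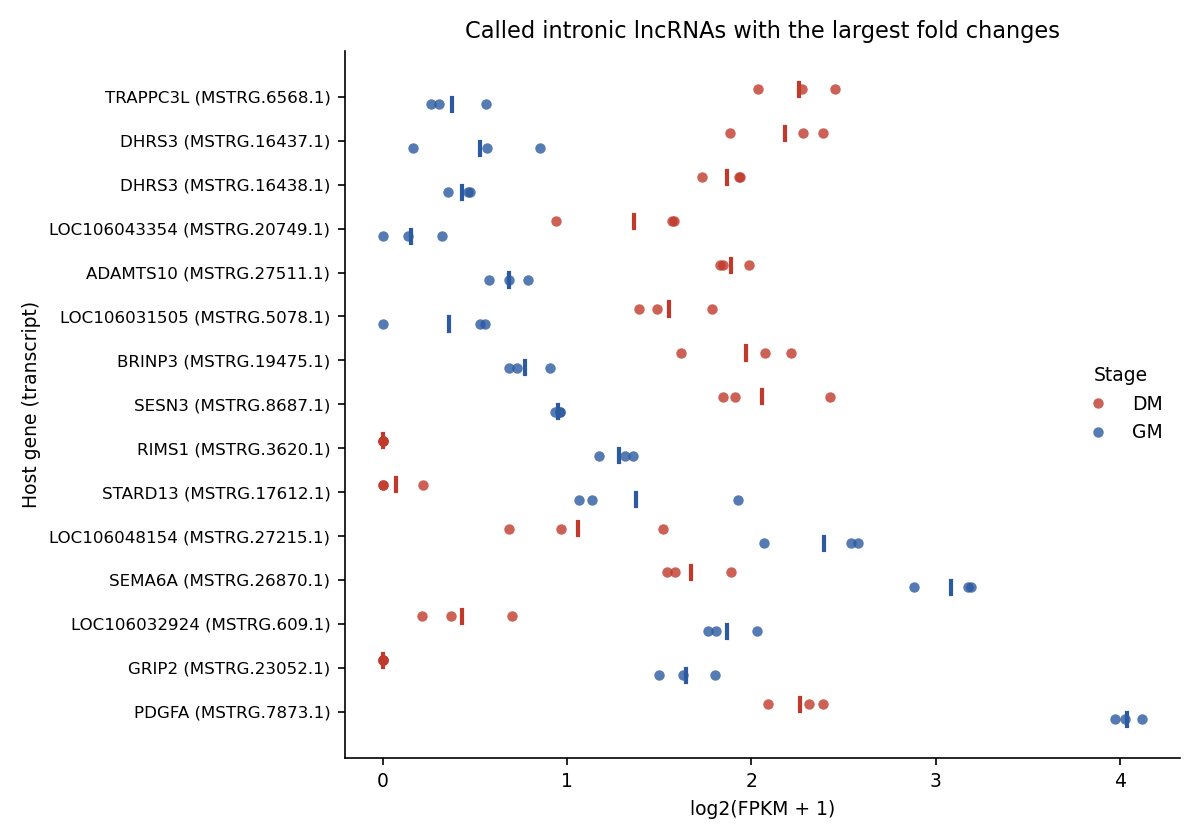
The 8 called transcripts that rose most and 7 of the 8 that fell most while reaching 1 FPKM in the higher stage, with 1 point per library on the log2(FPKM + 1) scale, DM in red above GM in blue, and the mean of each stage as a bar. The stages of all 15 transcripts are apart because the choice required it, and those in GRIP2 and RIMS1 lie at 0 in all DM libraries.

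The change of the intronic lncRNAs was next set against that of their hosts, to see whether a transcript moved with the gene that holds it. The gene table gives a value for the hosts of 3743 of the 4527. Of the 3816 tested transcripts, 2824 in 1123 hosts had a host that also passed the minimum, 630 had a host that was not matched in the gene table by symbol, and 362 had a host under the minimum. The median level was 0.958 FPKM for the 2824 transcripts and 2.88 FPKM for the 1123 hosts, and 82.6% of the transcripts were below their host. Among these hosts 40 were called (3.56%, against 4.02% of all genes), 23 higher (2.05%, against 2.18%) and 17 lower (1.51%, against 1.84%).

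Across the 2824 pairs the log2 fold changes of transcript and host correlated with a Pearson r of 0.498 and a Spearman rho of 0.466. This describes pairs that share the same 6 libraries, and transcripts of the same host share the value of the host. It was 0.497 for the 2755 transcripts outside the assembled locus of their host and 0.499 for the 645 hosts with 1 tested transcript. It was closer for longer transcripts, with r of 0.594 at 1000 bases or more (n = 786) and 0.378 at 200 to 300 bases (n = 694). By level it did not rise steadily. Here r was 0.506 at 0.5 to 1 FPKM, 0.455 at 1 to 2 FPKM, 0.528 at 2 to 5 FPKM and 0.691 at 5 FPKM or more (n = 50). When the median was taken over the transcripts of each of the 148 hosts with at least 5 tested ones, r was 0.659. The few with known orientation gave r of 0.746 for sense (n = 34) and 0.906 for antisense transcripts (n = 14), and whether these differ was not tested.

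**Figure D3:**
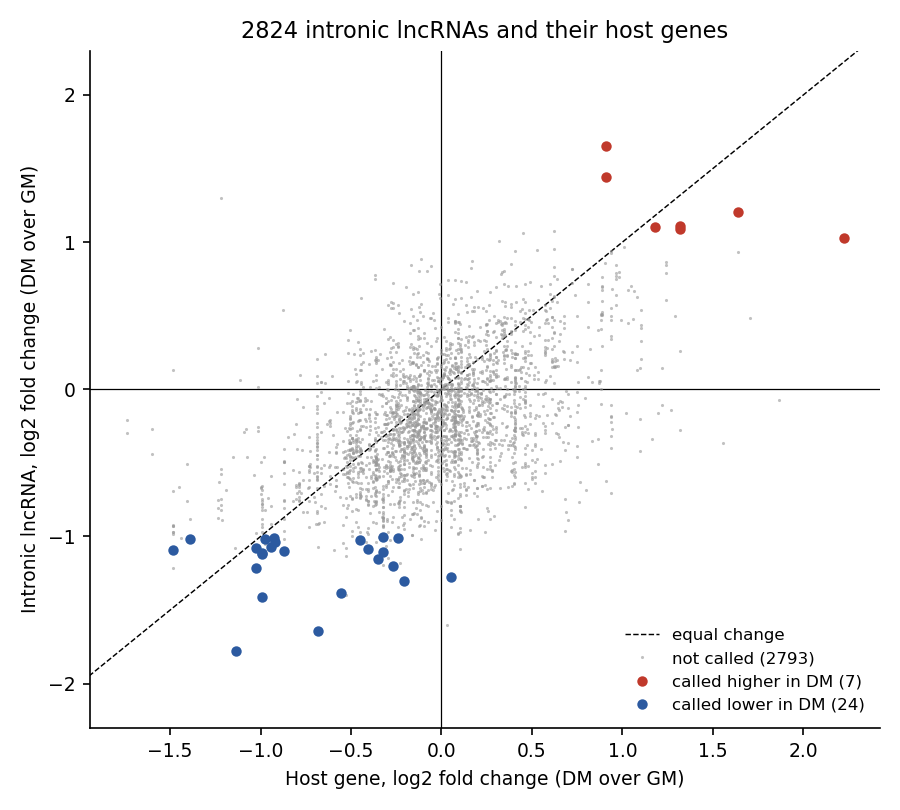
Log2 fold change (DM over GM) of 2824 intronic lncRNAs (vertical axis) against that of their host genes (horizontal axis), with 1 point per transcript and equal change as a dashed line. Called transcripts are coloured, 7 higher in DM in red and 24 lower in DM in blue, and the cloud rises from lower left to upper right and lies mostly below 0.

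The median transcript followed its host in steps. In hosts with a log2 fold change below -1 the median of 48 transcripts was -0.75, and in hosts from -1 to -0.5 the median of 235 was -0.55. In hosts from -0.25 to 0 the median of 785 was -0.25, and in hosts from 0 to 0.25 the median of 653 was -0.14. In hosts from 0.5 to 1 the median of 205 was 0.19, and in hosts over 1 the median of 38 was 0.46. The sizes at both ends cannot be set against those of the hosts, because the steps were set by the measured change of the host and because 1 added to each value lowers the changes of low transcripts the most. With a pseudocount of 0.1 the median in hosts called lower was -2.1.

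**Figure D4:**
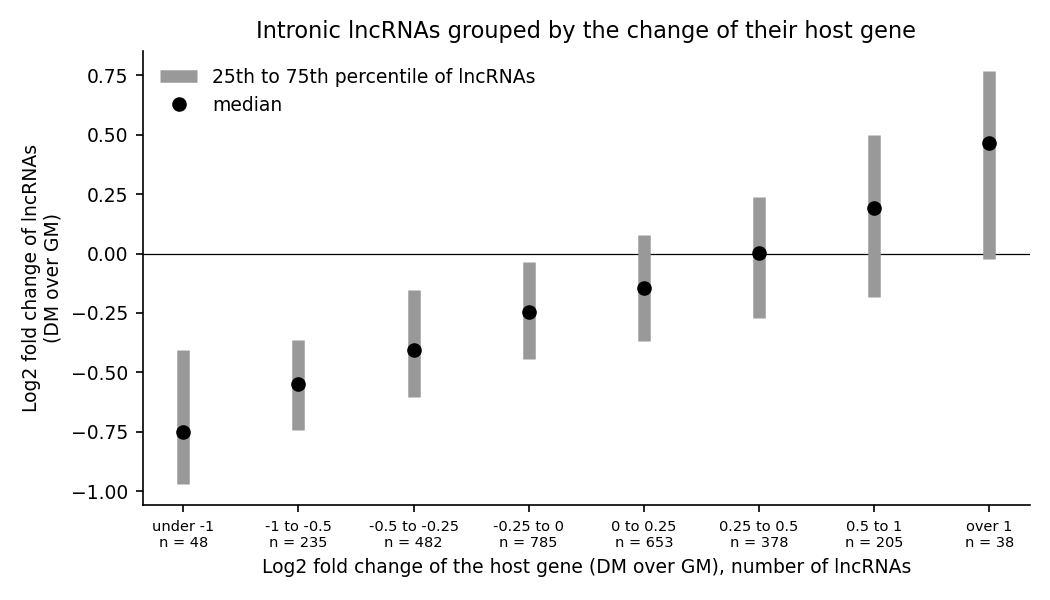
Intronic lncRNAs grouped by the log2 fold change of their host (DM over GM), with the number of transcripts under each group. Points give the median log2 fold change of the transcripts and bars the 25th to 75th percentile, and the medians climb from -0.75 to 0.46.

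In hosts that were called, the transcripts shared the direction of the host in most cases. The 17 hosts called lower held 34 tested transcripts, of which 33 had a log2 fold change below 0, 27 had DM below GM without overlap (against 25% of all lncRNAs), and 5 were called lower (against 1.45%). Their median was -0.89, and it was -0.70 after median scaling. The 23 hosts called higher held 35 tested transcripts, of which 27 were above 0, 14 had DM above GM without overlap (against 7.3%), and 5 were called higher (against 0.562%). Their median was 0.48, and it was 0.75 after median scaling but 0.23 without DM_1. In the 1083 hosts not called, 28.7% of 2755 transcripts were above 0, with a median of -0.23. No transcript was called in the direction opposite to a called host. Over all lncRNAs 1.45% were called lower and 0.562% higher, so that 0 of 35 and 0 of 34 lie near these shares.

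Read from the side of the transcripts, 31 of the 45 called ones had a tested host. Of the 24 called lower, 23 had a host with a negative log2 fold change, 18 of these with an adjusted p-value under 0.05, and 5 had a host called lower. The exception was MSTRG.13880.1 in SCUBE1, a secreted protein gene, which was at 0.178, 0.146 and 0.305 FPKM in DM and 1.49, 2.56 and 1.81 FPKM in GM, while its host changed by 0.05 (adjusted p = 0.885). All 7 called higher had a host that rose with an adjusted p-value under 0.05, and 5 of the hosts were called. For comparison, 329 of the 1123 tested hosts had a limma adjusted p-value under 0.05 in either direction. Called lower were 1.51% of them and called higher 2.05%. The median host change over the 2824 pairs was -0.052. STK32B, SNTG1 and DHRS3 each count 2 times here, since each held a pair of called transcripts. A further 7 called transcripts had a host that was not matched in the gene table, and 7 had one under the minimum.

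Whether a transcript changed more or less than its host was tested on the log2 ratio of transcript to host in each library, with limma over all 4771 lncRNA and host pairs of any class. Of the 2824 pairs with an intronic single-exon lncRNA 3 were called (0.106%, against 0.189% of all pairs), 1 higher (0.0354%, against 0.0838%) and 2 lower (0.0708%, against 0.105%). An unadjusted p-value under 0.05 was reached by 14.3%, against 14.1% of all pairs. The median standard error was 0.247 for the change of a transcript, 0.103 for that of a host and 0.266 for that of the ratio. When any 1 library was left out, limma called 0 of the 2824, while an unadjusted p-value under 0.05 was reached by 291 to 398.

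In the 3 called pairs the host had an adjusted p-value under 0.05 between the stages and the transcript had not. QPCT, which encodes glutaminyl cyclase, was at 44.9, 43.6 and 49.9 FPKM in DM and 13.1, 15.2 and 16.9 FPKM in GM. Its transcript MSTRG.2588.1 was at 0.761, 0.520 and 0.562 FPKM in DM and 1.02, 1.24 and 0.981 FPKM in GM, and the ratio fell by 1.92 on the log2 scale (adjusted p = 0.035). AFF2, a gene of the AF4/FMR2 family of transcription elongation factors, was at 14.5, 11.9 and 9.80 FPKM in DM and 3.24, 1.59 and 3.05 FPKM in GM. Its transcript MSTRG.13212.1 was at 1.85, 1.17 and 1.19 FPKM in DM and 1.90, 1.31 and 1.35 FPKM in GM, so that the stages overlapped, and the ratio fell by 1.94 (adjusted p = 0.037).

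The third pair ran the other way. CALCR, the calcitonin receptor gene, whose product marks quiescent muscle stem cells in mice, was at 0.0385, 0.0996 and 0.0638 FPKM in DM and 1.14, 0.757 and 1.01 FPKM in GM. Its transcript MSTRG.15826.1 (212 bases) was at 2.01, 1.92 and 1.95 FPKM in DM and 1.52, 0.584 and 1.12 FPKM in GM, and the ratio rose by 1.42 (adjusted p = 0.044). CALCR passed the minimum of 0.5 FPKM only through its GM libraries, so that this pair entered the test through the stage where its host was high. The call of the ratio is therefore no support for a change of the transcript. With a pseudocount of 0.1, which enlarges the changes of low levels, the ratio of this pair rose by 3.57 (limma adjusted p = 0.0166). Those in QPCT and AFF2 then had adjusted p-values of 0.108 and 0.0815.

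Transcripts of the same host resembled each other more than transcripts at large. Over the 2760 tested transcripts in the 649 hosts with at least 2, the standard deviation of the log2 fold change was 0.411 in all and 0.28 within a host. In IL1RAPL2 all 27 tested transcripts, spread over 330 kb, had a negative log2 fold change, with a median of -0.83, and 21 had DM below GM without overlap, against 22.4% of the 3816. Summed per library, the FPKM of its 35 transcripts came to 10.4, 4.87 and 3.78 in DM and 40.2, 24.4 and 28.1 in GM. Fitted as 1 value beside all other lncRNAs, this sum changed by -2.14 (SE 0.35, limma adjusted p = 0.023). Over all hosts, 45 of 1729 such sums were called lower. The host was at 0.458, 0.439 and 0.471 FPKM in DM and 0.981, 0.733 and 0.761 FPKM in GM (-0.32, adjusted p = 0.022). The sizes of these changes cannot be compared, because the 1 added to each value lowers the changes of low levels the most. Without it, the log2 ratio of the host's mean levels was -0.85.

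The other hosts with many transcripts showed smaller shifts. For comparison, 68.6% of the 3816 tested transcripts were below 0. In PDE10A 27 of 30 transcripts were below 0, with a median of -0.39, and the host changed by -0.69 (adjusted p = 0.0073). In CAMTA1 29 of 36 were below 0, with a median of -0.50 beside -0.36 for the host (adjusted p = 0.155). In MACROD2 33 of 45 were below 0, with a median of -0.22, and the host changed by 0.08 (adjusted p = 0.650). In NPAS3 the median of 32 transcripts was -0.16, whereas the host was at 1.09, 0.964 and 0.785 FPKM in DM and 0.493, 0.410 and 0.50 FPKM in GM (0.40, adjusted p = 0.014). Among these 5 hosts the only transcript called was MSTRG.13144.1 in IL1RAPL2.

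**Figure D5:**
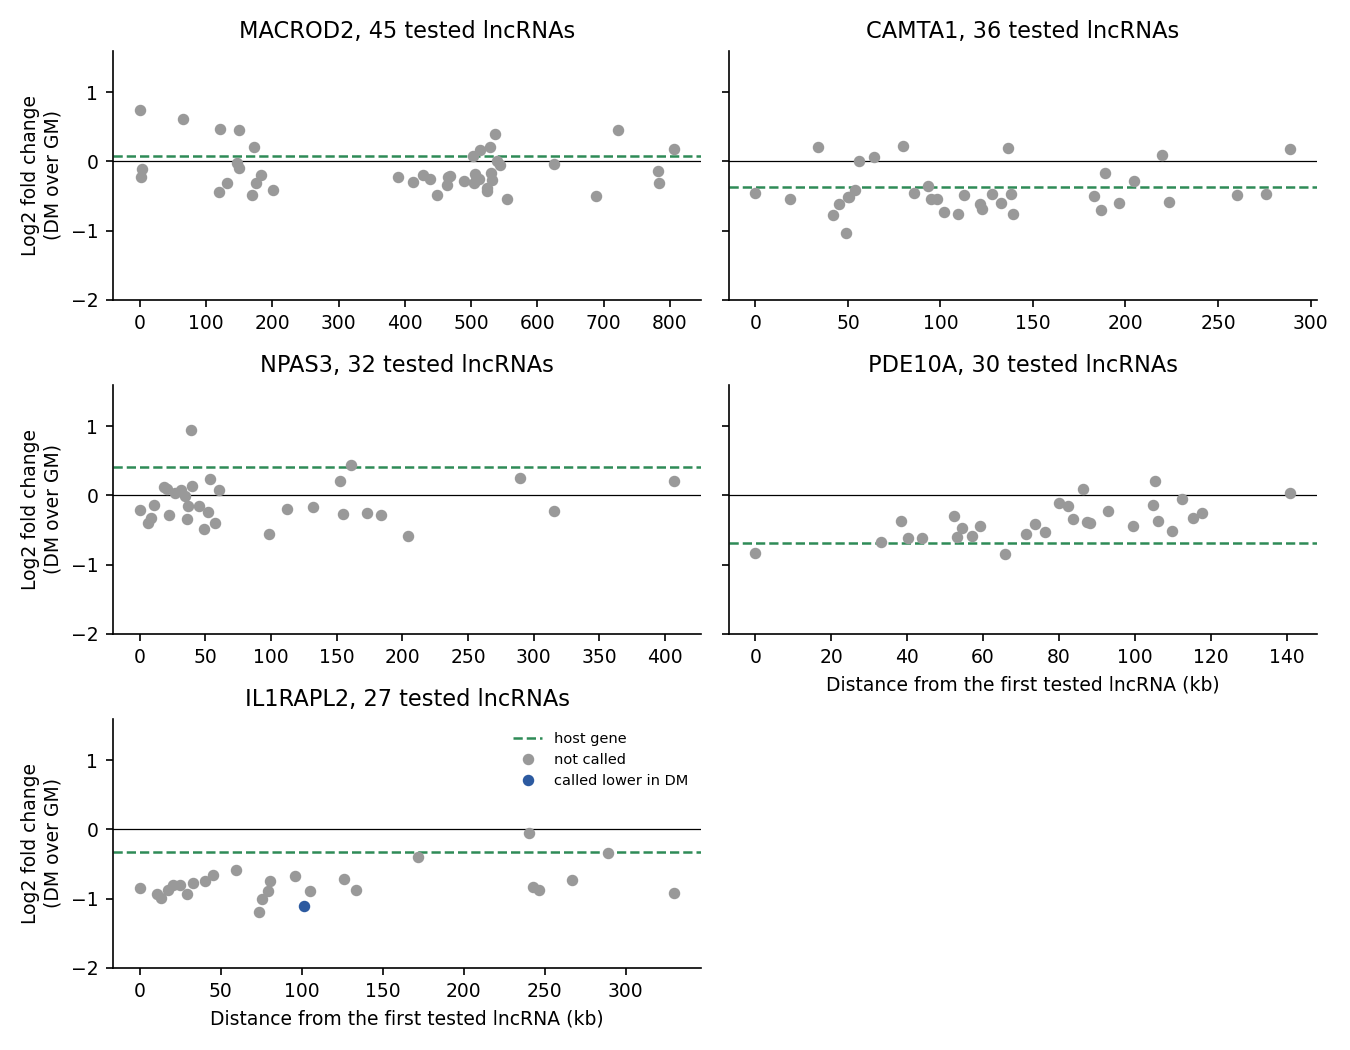
Log2 fold change (DM over GM) of each tested intronic lncRNA against its distance in kb from the first one, for the 5 hosts with the most tested transcripts, with the change of the host gene as a dashed green line. The 27 points of IL1RAPL2 all lie below 0, and those of MACROD2 and NPAS3 lie on both sides.

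Hosts with roles in muscle were then taken as groups. Transcripts of the same host moved alike, so that they are not separate observations. The counts and medians of a list can therefore rest on a few hosts, and they were not tested against those of the 3816. In 13 hosts of the list of myogenic regulators 52 transcripts were tested and 42 were below 0, against 68.6% of the 3816. Limma called 0 of the 52, and 22 had an unadjusted p-value under 0.05, which 22.5% of the 3816 and 25.8% of all lncRNAs reached. The median was -0.52 beside -0.22 for all intronic lncRNAs, and -0.31 after median scaling. The most abundant were in RUNX1, a transcription factor of activated muscle stem cells in mice. MSTRG.20848.1 was at 11.2, 5.12 and 5.77 FPKM in DM and 28.5, 16.6 and 16.9 FPKM in GM, without overlap, with a log2 fold change of -1.40 (SE 0.31) and an adjusted p-value of 0.051. MSTRG.20849.1 was at 7.06, 3.45 and 2.81 FPKM in DM and 12.1, 10.6 and 8.44 FPKM in GM (adjusted p = 0.068). In both, replicate 1 was the highest library of each stage, and RUNX1 itself changed by -0.53 (adjusted p = 0.155). Of the 5 myoblast and myotube markers, 3 were called lower and MEF2C was higher, and their part in these values was not tested.

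In 12 hosts of growth factor and TGF-beta signaling 34 transcripts were tested, 13 of them in PDGFC, and 26 were below 0, against 68.6% of the 3816. The median was -0.49, and -0.35 after median scaling. The 2 called (2.01% of all lncRNAs were called) were both lower and lay in the ligand genes PDGFA and PDGFC. After median scaling PDGFA kept its call, PDGFC did not, and MSTRG.3685.1 in the ligand gene BMP5, at 1.49, 1.21 and 0.649 FPKM in DM and listed at 0 in all GM libraries, was called higher (1.18, adjusted p = 0.047). The transcript in BMP5 passed the minimum of 0.5 FPKM only through its DM libraries, so that its call is no support beyond these values. MSTRG.6249.1 in PDGFC was at 0.450, 0.341 and 0.137 FPKM in DM and 2.54, 1.63 and 1.33 FPKM in GM (log2 fold change -1.10, adjusted p = 0.036), and all 13 tested transcripts of PDGFC were below 0. The host PDGFC was at 4.90, 4.43 and 4.25 FPKM in DM and 8.35, 9.02 and 9.96 FPKM in GM. In IGF1R, the receptor of insulin-like growth factors, MSTRG.11618.1 was at 4.78, 1.73 and 1.92 FPKM in DM and 7.36, 4.45 and 4.42 FPKM in GM, with overlap and an adjusted p-value of 0.161.

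In adhesion and guidance, 22 hosts held 74 tested transcripts, 12 of them in SEMA6A. Below 0 were 59, against 68.6% of the 3816. The median was -0.49 beside -0.22 for all intronic lncRNAs. Limma called 2 of the 74, both lower, while 1.45% of all lncRNAs were called lower. After median scaling the median was -0.28 and the only call left was that of MSTRG.26870.1 in SEMA6A. All 12 tested transcripts of SEMA6A were below 0, and 11 had DM below GM without overlap, against 22.4% of the 3816. In TENM1, a teneurin gene of cell adhesion, MSTRG.14367.1 was at 5.83, 5.03 and 6.05 FPKM in DM and 9.39, 10.7 and 12 FPKM in GM (-0.81, adjusted p = 0.034), inside the fold limit. Its host was at 0.118 to 0.320 FPKM.

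In the dystrophin complex, which ties the cytoskeleton of the fiber to the matrix, 19 transcripts in 8 hosts were tested. Of these, 15 were below 0, against 68.6% of the 3816, and the median was -0.50, and -0.31 after median scaling. Their 8 tested hosts had a median log2 fold change of 0.20, and 1 host was called lower and 0 higher. This median counts each host once, so that it cannot be set against that of the transcripts. The 2 transcripts called lower (against 1.45% of all lncRNAs) were neighbours in SNTG1, a syntrophin gene. MSTRG.14134.1 was at 0.216, 0.0481 and 0.0575 FPKM in DM and 1.89, 1.41 and 1.42 FPKM in GM (-1.21, adjusted p = 0.022). The host SNTG1 was at 0.290, 0.161 and 0.230 FPKM in DM and 1.92, 1.04 and 1.6 FPKM in GM and was called lower by 1.02. After median scaling only MSTRG.14134.1 kept its call.

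In 11 hosts of the Wnt list 38 transcripts were tested and 29 were below 0, against 68.6% of the 3816. The median was -0.16, but 0.02 after median scaling. Limma called 1 of the 38, lower in DM, while 1.45% of all lncRNAs were called lower. After median scaling this call was lost. The 1 called, MSTRG.12498.1 in DAAM1, a formin of the planar polarity branch, was at 0.541 FPKM in DM_1, 0.153 FPKM in DM_2 and listed at 0 in DM_3, and at 1.30, 1.51 and 1.52 FPKM in GM (-1.01, adjusted p = 0.049, and 0.072 after median scaling). In the kinase gene CDK14 the host was at 40.1, 40.8 and 42.5 FPKM in DM and 25.1, 23.6 and 18.0 FPKM in GM, whereas MSTRG.15784.1 and MSTRG.15783.1 had log2 fold changes of 0.04 and 0.05. The ratio of these transcripts to CDK14 changed by -0.83 and -0.82, with adjusted p-values of 0.260 and 0.202.

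Limma called 0 transcripts in the hosts of the sarcomere (15 tested), calcium handling (21), extracellular matrix and integrin (24) and cell cycle (13) lists, with medians of -0.16, -0.20, -0.38 and -0.11. An unadjusted p-value under 0.05 was reached by 8, 4, 7 and 0 of them, against 22.5% of the 3816. After median scaling the medians of the transcripts in sarcomere and cell cycle hosts were 0.18 and 0.11. Before that scaling, the hosts themselves had median log2 fold changes of 0.16, 0.10, 0.23 and 0.23, in the order of the lists above. These count each host once, so that they cannot be set against the medians of the transcripts. These lists do not cover every gene of their kind. DCN, DPT, FBN3, COL15A1 and SPEG, which held called transcripts, are not in them. In TPM3, a tropomyosin gene of the thin filament, MSTRG.27678.1 was at 3.58, 3.34 and 3.71 FPKM in DM and 6.27, 6.23 and 6.48 FPKM in GM (-0.69, adjusted p = 0.039), and TPM3 itself changed by -0.37 (adjusted p = 0.018). In MYH9, a nonmuscle myosin gene, MSTRG.10844.1 was at 6.66, 5.44 and 5.15 FPKM in DM and 12.7, 9.07 and 10.2 FPKM in GM (-0.78, adjusted p = 0.051).

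Of the 3 classes most alike, the intronic single-exon lncRNAs were the shortest and had the smallest share called. The 6587 intergenic single-exon lncRNAs had a median length of 473 bases, a median log2 fold change of -0.25 and 90 calls among 5847 tested (1.54%). The 867 intronic multi-exon lncRNAs had a median length of 1694 bases, a median log2 fold change of -0.24 and 17 calls among 808 tested (2.1%). These shares were not tested against each other, and within the intronic single-exon class the share called moved with the level, at 0.782% of 2174 transcripts of 0.5 to 1 FPKM and 4.11% of the 73 transcripts of at least 5 FPKM.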

How the data were processed

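The authors trimmed reads, mapped them to the goose genome GooseV1.0, assembled transcripts with StringTie, screened lncRNAs for coding potential and deposited FPKM values per library for genes and lncRNAs. Their methods name Bowtie2 for mapping and the submitters' processing notes name HISAT2 and TopHat. The deposited lncRNA table also lists the class, length and host of each transcript. The columns of the authors' own comparison (fold changes and p-values) were not used.

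The class, its hosts and the gene lists were chosen with earlier results of these data known. Host values were joined by gene symbol. With R 4.3.3 and limma 3.58.1 (lmFit, eBayes with trend), log2(FPKM + 1) was fitted for rows averaging 0.5 FPKM or more, p-values were adjusted over the whole table (Benjamini-Hochberg), and calls needed a log2 fold change over 1 with an adjusted p-value below 0.05. The package the study names needs counts and was not used. An exact permutation test of 3 against 3 cannot go below p = 0.1. The fits were tested on simulated data. Python 3.11.15 with pandas 2.3.3 and matplotlib 3.10.9 was used for joins and figures.

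Transcripts named were the 8 called in each direction with the largest change, no overlap and a higher stage of at least 1 FPKM, the 5 most abundant, the 5 hosts with the most tested transcripts, up to 5 pairs per direction called by ratio, and per list the 2 most abundant and those called. Others were chosen after their values were seen. Alternatives were a pseudocount of 0.1, other filters, median scaling, quantile normalization, no fold limit, unadjusted p-values, no trend, a replicate block and each library left out. DM_1 and GM_1 left out together, and a pseudocount of 0.1 with median scaling, were added after the data were seen. Sequences were not analysed here, and some items that the naming rule selects are not reported here.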

Additional observations from a re-analysis of the deposited data

How the results depend on the processing

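With 3 libraries per stage and levels near 1 FPKM, the calls depended on the libraries and on the scaling. The 45 called transcripts kept their sign under median scaling and quantile normalization. With 1 library left out their sign could not change, because their stages did not overlap. Leaving out 1 library gave 4 to 23 called transcripts (1 to 6 higher, 3 to 18 lower), a median log2 change of -0.296 to -0.144, 36 to 51 called hosts, 0 to 0 called ratios (limma; median ratio change -0.231 to -0.0992), medians of 0.230 to 0.611 and -0.972 to -0.794 in hosts called higher and lower, and a Spearman rho of 0.430 to 0.452. Leaving out DM_1 and GM_1 gave 0 called transcripts, 0 higher and 0 lower, 0 called ratios, a median of 0.312 in hosts called higher and a rho of 0.415. Quantile normalization gave 27 higher and 11 lower, a median of -0.0242, and 0.656 and -0.716 in hosts called higher and lower. Median scaling gave 35 higher and 10 lower, a median of -0.00407, and 0.745 and -0.703 in those hosts. A pseudocount of 0.1 gave a median of -0.403, 102 called hosts, 1 called ratio, a median ratio change of -0.343, and 0.816 and -2.10 in those hosts, and with median scaling 42 higher and 15 lower, -0.0170, 106 hosts, 1 ratio, and 1.21 and -1.82. A minimum of 2 FPKM left 367 transcripts, with 15 called (5 higher, 10 lower), 1 ratio, medians of 0.157 and -0.585, and a rho of 0.571. No fold limit gave 94 (26 higher, 68 lower) and 329 hosts, and unadjusted p-values gave 84 (66 lower) and 72 ratios. Without the trend 1 ratio was called.

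The labels do not give the replicate numbers as pairs, and the main fit did not take them as such. The deviations of same-numbered libraries correlated at 0.115, 0.0548 and 0.0629, against -0.0885 to 0.0291 for other pairs. By these values 6 of 6 libraries correlated best with their own number. Deviations within a stage sum to 0, which ties the correlations together, so that the 6 are not separate results. Whether same-numbered libraries share an effect was not tested. With the replicate block 9 transcripts were called (3 higher, 6 lower), 8 of them among the 45, and 0 ratios.

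Uncalled transcripts near 0 changed sign. With quantile normalization, median scaling, and median scaling with a pseudocount of 0.1, MSTRG.13212.1 in AFF2 was at 0.115, 0.183 and 0.289, MSTRG.15145.1 in RYK at 0.155, 0.271 and 0.373, MSTRG.15641.1 in NKD1 at 0.102, 0.186 and 0.290, and MSTRG.26059.1 in SPTAN1 at 0.0870, 0.284 and 0.331. With the last 2 of these, MSTRG.18655.1 in LOC106041994 was at 0.196 and 0.202, MSTRG.23857.1 in NFIC at 0.340 and 0.349, and MSTRG.2987.1 in FASTKD1 at 0.294 and 0.301 (0.0109 without DM_1 and GM_1). MSTRG.29370.1 in LOC106049880 was at -0.0693 with quantile normalization. With 1 library left out, the ranges were -0.201 to 0.0325 (AFF2), -0.125 to 0.0646 (RYK), -0.181 to 0.0374 (NKD1), -0.0620 to 0.153 (LOC106049880), -0.324 to 0.0614 (FASTKD1), and -0.124 to 0.219 and -0.164 to 0.229 (MSTRG.15783.1 and MSTRG.15784.1 in CDK14). The causes were not tested.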

Other observations

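Some intronic lncRNAs of high level lay just inside the fold limit, and they are named here after their values were seen. MSTRG.7520.1 in MAF, a leucine zipper transcription factor gene, was at 33.2, 33.4 and 27.8 FPKM in DM and 15.1, 16.6 and 15.8 FPKM in GM. The stages did not overlap, and the log2 fold change was 0.94 (SE 0.15, limma adjusted p = 0.021). MSTRG.28136.1 in CALU, which encodes a calcium-binding protein of the secretory pathway, was at 8.85, 8.65 and 7.47 FPKM in DM and 18.2, 15.7 and 18.5 FPKM in GM (-0.98, SE 0.15, adjusted p = 0.019). MSTRG.12868.1 in PLS3, an actin-bundling plastin gene, was at 10.1, 7.52 and 8.29 FPKM in DM and 19.5, 14.3 and 15.3 FPKM in GM (-0.85, SE 0.18, adjusted p = 0.045). The hosts MAF, CALU and PLS3 changed by 0.94, -0.41 and -0.16 (limma adjusted p = 0.0041, 0.161 and 0.155).

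GRK5, a kinase gene of G protein-coupled receptors, held 10 intronic single-exon lncRNAs, of which 6 were tested. All 6 had DM above GM without overlap (against 7.3% of all lncRNAs), with log2 fold changes of 0.57 to 0.85, and none was called by limma, 5 having an unadjusted p-value under 0.05. Summed per library, the 10 transcripts came to 9.23, 4.32 and 3.86 FPKM in DM and 1.68, 0.842 and 0.495 FPKM in GM (log2 fold change 2.12, SE 0.38, limma adjusted p = 0.030). Over all hosts, 15 of 1729 such sums were called higher. GRK5 was chosen after its values were seen, so that neither the count of 6 nor the p-value of the sum is support beyond them. The host GRK5 was at 2.64, 2.52 and 1.68 FPKM in DM and 0.735, 0.687 and 0.582 FPKM in GM (0.96, adjusted p = 0.0037). DM_1 was the highest DM library in both. The sizes of the changes of sum and host cannot be compared, because the 1 added to each value lowers the changes of low levels the most.

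A neighbouring pair in GPC5, a glypican gene, differed in pattern. MSTRG.24767.1 on the minus strand was at 3.19, 3.26 and 2.67 FPKM in DM and 7.12, 5.55 and 5.32 FPKM in GM. MSTRG.24768.1 on the plus strand was at 3.92, 5.31 and 4.79 FPKM in DM, at 11.1 FPKM in GM_1, and listed at 0 in GM_2 and GM_3.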
